A study of Mus musculus with 6 samples.

Results

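The genes of prostaglandin synthesis, breakdown and reception were examined in cells labelled primary keratinocytes, which build the epidermis, and in cells labelled mouse embryonic fibroblasts (MEFs). The set held 10 genes, chosen by name as enzymes that make or degrade prostaglandins or as receptors that bind prostaglandin E2, and 7 of them had a probe set paired with exactly 1 gene symbol, of 10261 genes so paired. Ptgs1, Ptger2 and Hpgd were not analysed here, so the breakdown enzyme of the set and 1 of its cyclooxygenases carry no value. Each of the 7 measured genes had 1 probe set.

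The series set 3 arrays labelled keratinocytes, of newborn mouse skin (postnatal day 0), against 3 labelled MEFs, from embryos at day E13.5. No treatment was applied, the labels give no genotype, and the arrays were numbered as biological replicates. The MEF protocol combines several embryos without head and inner organs and names DR-4 as the desired strain, while MEF cultures in the methods came from C57BL/6J embryos. The groups also differed in age, isolation and, per the methods, culture medium, and these cannot be told apart from cell type.

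Prostaglandins are lipid signals made from arachidonic acid that phospholipases A2 free from membranes. A cyclooxygenase, Ptgs1 or the inducible Ptgs2, turns it into prostaglandin H2, and a terminal synthase then makes prostaglandin E2, prostacyclin or another product. Prostaglandin E2 acts through the EP receptors encoded by the Ptger genes, of which EP2 and EP4 raise cyclic AMP, and Hpgd starts its breakdown. In skin, prostaglandin E2 is known for its part in inflammation, wound repair and keratinocyte growth, and fibroblasts are a known source of it when stimulated.

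The labels were checked with Cdh1, which encodes E-cadherin of epithelial cells, and Vim, which encodes the filament protein vimentin of mesenchymal cells. The log2 signal of Cdh1 was 3.33, 2.16 and 3.26 on the keratinocyte-labelled arrays and 8.62, 8.59 and 8.73 on the MEF-labelled arrays. For Vim it was 11.93, 11.97 and 12.03 on the keratinocyte-labelled arrays, against 3.81, 3.92 and 3.78 on the MEF-labelled ones. Both genes ran opposite to the cell types in the labels. All 5 epithelial check genes (with Epcam, Krt5, Krt14 and Dsg3) were higher on the MEF-labelled arrays and all 5 mesenchymal ones (with Col1a1, Col1a2, Zeb1 and Pdgfrb) on the keratinocyte-labelled ones. For this reason every direction below is that of the arrays as labelled, and none is assigned to a cell type.

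Of the 7 measured genes, 3 were higher on the keratinocyte-labelled arrays and 2 on the MEF-labelled arrays at an adjusted p under 0.05 in limma, a linear model fitted to all probe sets with 1 symbol. The prostaglandin E synthase genes Ptges and Ptges2 were the genes lower on the keratinocyte-labelled arrays. The prostacyclin synthase gene Ptgis and the receptor genes Ptger1 and Ptger4 were higher there. Ptgs2 and Ptges3 did not pass the test. Of all genes, 32.9% passed as higher on the keratinocyte-labelled arrays and 41.7% as higher on the MEF-labelled ones, so neither count stands apart from what genes did in general. The arrays of one label did not overlap those of the other for 5 of the 7 genes, against 78.4% of all genes.

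**Figure D1:**
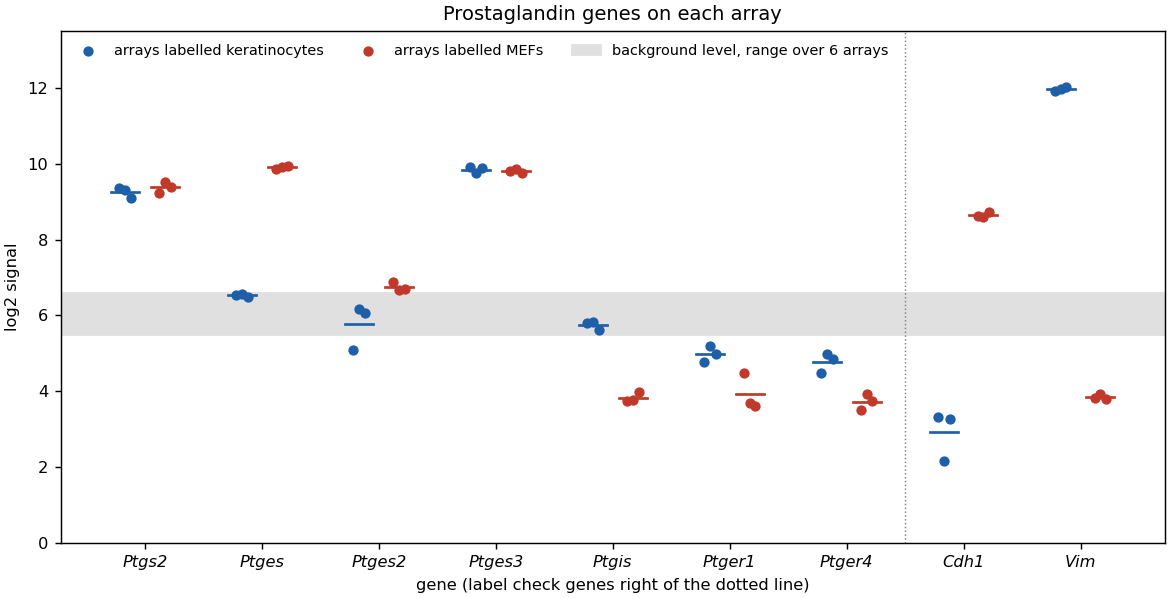
Log2 signal (vertical axis) of the 7 measured prostaglandin genes, with Cdh1 and Vim as label check, on the 3 keratinocyte-labelled arrays (blue, left of each pair) and the 3 labelled MEFs (red, right). Points are arrays, lines are group means, and the grey band spans the olfactory receptor background of the 6 arrays, 5.49 to 6.58. Ptges is far apart between the groups, Ptgs2 and Ptges3 overlap well above the band, and Ptger1 and Ptger4 lie under it on all arrays.

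Ptgs2 encodes cyclooxygenase 2, the inducible enzyme at the entry of the pathway. Its log2 signal was 9.35, 9.30 and 9.11 on the keratinocyte-labelled arrays and 9.23, 9.53 and 9.38 on the MEF-labelled ones. The groups overlapped, and all 6 arrays lay well above the background level, which was set as percentile 95 of the 10 probe sets for olfactory receptors on each array (5.49 to 5.92 on the keratinocyte-labelled arrays, 6.05 to 6.58 on the MEF-labelled ones). The difference, keratinocyte-labelled minus MEF-labelled, was -0.13 ± 0.11 on the log2 scale (SE, 95% interval -0.39 to 0.13, adjusted p = 0.327, limma). Of all genes, 10.2% differed by less. The median of all genes was -0.12, next to which the value of Ptgs2 lies. The exact two-sided permutation test over the 6 arrays gave p = 0.4. In RNA of whole cultures, fewer cells expressing a gene and less RNA per cell cannot be told apart.

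Ptges encodes microsomal prostaglandin E synthase 1, the inducible terminal enzyme that converts the cyclooxygenase product into prostaglandin E2. Its signal was 6.53, 6.55 and 6.50 on the keratinocyte-labelled arrays, against 9.86, 9.92 and 9.95 on the MEF-labelled arrays. Every array exceeded its own background level, and the spread within each group was small, with SDs of 0.03 and 0.05 (n = 3 each). The signal was 10.4-fold lower on the keratinocyte-labelled arrays, a log2 difference of -3.38 ± 0.08 (SE, adjusted p = 9.18e-09, limma). Of all genes, 94.4% had a smaller difference in either direction. The groups did not overlap (exact permutation test, two-sided, p = 0.1, which is the least that 3 arrays against 3 allow).

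Ptges2 encodes a membrane-associated prostaglandin E synthase, and its signal was 5.10, 6.18 and 6.07 on the keratinocyte-labelled arrays and 6.89, 6.68 and 6.69 on the MEF-labelled ones. Replicate 1 labelled keratinocytes was low and under its background of 5.70, while the other 5 arrays exceeded theirs. The log2 difference was -0.97 ± 0.26 (SE, 1.96-fold lower on the keratinocyte-labelled arrays, adjusted p = 0.00923, limma). Without replicate 1 labelled keratinocytes it was -0.63, with adjusted p = 0.00165 from limma. The methods' t-test gave an adjusted p of 0.07, and over all alternatives the adjusted p lay between 0.00165 and 0.07.

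Ptges3 encodes p23, a co-chaperone of Hsp90 that has also been described as cytosolic prostaglandin E synthase. It had 9.90, 9.76 and 9.88 on the keratinocyte-labelled arrays and 9.81, 9.87 and 9.75 on the MEF-labelled arrays, so the groups overlapped. The log2 difference was 0.04 ± 0.09 (SE, 95% interval -0.17 to 0.25, adjusted p = 0.7 from limma, exact two-sided permutation p = 0.5). The identity of this probe set is uncertain. Ptges3 lies on chromosome 10, but of the 10 named probe sets next to it in identifier order, 9 belong to genes of chromosome 6 and 0 to genes of chromosome 10. The nearest on either side, Alms1 and Tprkb, enclose Ptges3-ps, a pseudogene copy of Ptges3, in the RefSeq gene order of GRCm38.p6. For the other 6 genes, 9 or 10 of 10 such neighbours lay on the gene's own chromosome. Whether the signal came from Ptges3, its copy or both was not tested. Among the 3 genes named as prostaglandin E synthases, the largest difference was that of Ptges.

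**Figure D2:**
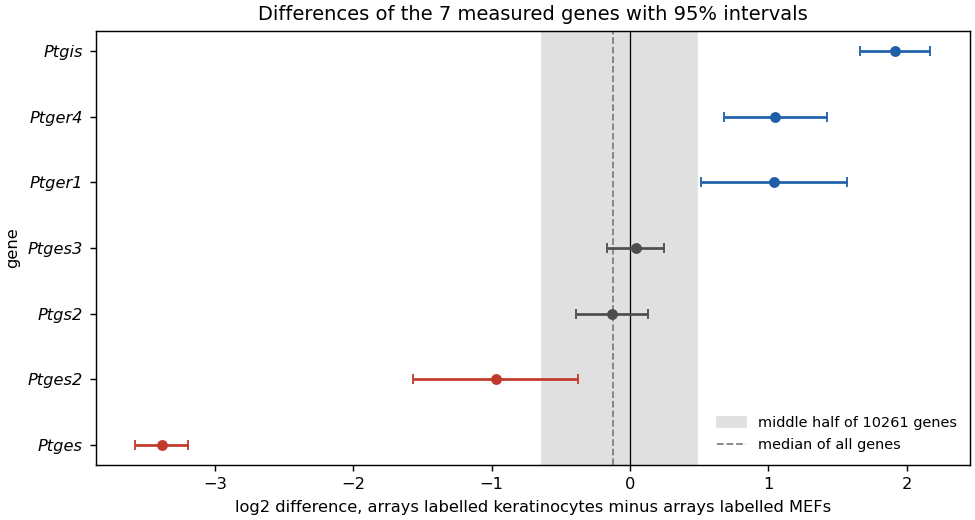
Log2 difference (horizontal axis, keratinocyte-labelled minus MEF-labelled) of the 7 measured genes, with 95% intervals from limma. Blue passed the threshold as higher on the keratinocyte-labelled arrays, red as higher on the MEF-labelled ones and grey did not pass. The grey band holds the middle 50% of all 10261 genes (-0.64 to 0.48) and the dashed line their median, -0.12. Ptges lies at -3.38 and Ptgis at 1.91, while the intervals of Ptgs2 and Ptges3 fall inside the band.

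RefSeq promoters of build GRCm38.p6, reaching 250 bases before and 50 after each annotated start, were matched for 8 of the 10 genes by symbol. Those of the cyclooxygenase and of the membrane-bound E synthases are shown from the 5′ end to base 30 after the start, because Ptgs2 and Ptges sit at consecutive steps of synthesis and differed so unequally between the groups. Capitals mark the E-box CACGTG, the only motif of those searched that was found in them. Ptgs2 lies on the + strand at chr1:150099781-150100060, Ptges on the - strand at chr2:30903268-30903547 and Ptges2 on the + strand at chr2:32395640-32395919.
Ptgs2: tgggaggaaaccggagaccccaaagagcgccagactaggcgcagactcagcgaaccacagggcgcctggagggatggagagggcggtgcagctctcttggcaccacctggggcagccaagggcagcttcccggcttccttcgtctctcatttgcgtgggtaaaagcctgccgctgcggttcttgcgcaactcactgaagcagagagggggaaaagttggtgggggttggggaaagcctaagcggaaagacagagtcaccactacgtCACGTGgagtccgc
Ptges: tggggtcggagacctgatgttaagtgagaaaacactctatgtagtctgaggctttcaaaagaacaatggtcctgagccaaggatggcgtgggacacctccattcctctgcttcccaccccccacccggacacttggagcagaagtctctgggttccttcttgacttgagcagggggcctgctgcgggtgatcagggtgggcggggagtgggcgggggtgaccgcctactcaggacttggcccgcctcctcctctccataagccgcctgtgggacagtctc
Ptges2: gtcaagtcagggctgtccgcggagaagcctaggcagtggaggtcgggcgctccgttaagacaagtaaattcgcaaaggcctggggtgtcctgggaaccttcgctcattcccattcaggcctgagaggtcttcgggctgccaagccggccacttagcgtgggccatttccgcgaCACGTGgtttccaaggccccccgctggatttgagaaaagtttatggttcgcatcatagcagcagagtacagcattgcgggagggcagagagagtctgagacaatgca

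The E-box stood at bases 17 to 22 after the annotated start in Ptgs2 and at bases -77 to -72 in Ptges2. It occurs in 7.15% of the 32851 promoters of the table on either strand. The grainyhead motif AACCNGTT, the AP-1 site TGANTCA and the full cyclic AMP response element TGACGTCA were searched on both strands as well. They occur in 2.09%, 7.81% and 1.79% of promoters, and none of the 8 matched promoters held any of them. Shorter or variant forms were not searched, so other forms of these elements may be present. The TATA motif TATAAA (13.6% of promoters) was found in that of Hpgd alone among the 8, at bases 5 to 10 after the annotated start. No matched promoter held more than 1 match, so an overlap between searched motifs could not arise. Overlap of the E-box with shorter forms was not searched. The GC content was 60.0% for Ptges, 59.3% for Ptgs2 and 58.7% for Ptges2, against a median of 52.7% over all promoters of the table. A match here is a description of letters and not a site of binding.

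Ptgis encodes prostacyclin synthase, a cytochrome P450 enzyme known from vessel walls. Its signal was 5.79, 5.84 and 5.60 on the keratinocyte-labelled arrays and 3.74, 3.76 and 3.99 on the MEF-labelled ones. Replicates 1 and 3 labelled keratinocytes exceeded their background level by a little, and the other 4 arrays did not, so that the MEF-labelled level is only bounded from above. The background of the MEF-labelled arrays, 6.05 to 6.58, lies above all keratinocyte-labelled signals of Ptgis, so no least fold can be given. The groups did not overlap, and the fitted log2 difference between these dim signals was 1.91 ± 0.11 (SE, adjusted p = 1.06e-06, limma), which is not a measured fold. Genes of smooth muscle and pericytes had the same direction, as did all 5 mesenchymal check genes. Of the 5 smooth muscle and pericyte genes listed, 4 were measured and all 4 were higher on the keratinocyte-labelled arrays. In that direction 32.9% of all genes passed. Myh11, the smooth muscle myosin, had 6.78, 6.52 and 6.52 there against 3.92, 3.55 and 3.77. The summed signal of the 4 (log2 of the sum of linear signals) was 12.35 to 12.41 on the keratinocyte-labelled arrays and 7.63 to 7.89 on the MEF-labelled ones. Most of it came from Acta2, at 12.16, 12.19 and 12.20 against 7.69, 7.42 and 7.53. The part of these genes in the result was not tested. Of the 5 endothelial markers only Kdr was measured, at or under background on each array and dimmer on the keratinocyte-labelled ones (adjusted p = 7.69e-06, limma).

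The prostaglandin E2 receptor genes Ptger1 and Ptger4 were at or under the background level on each array, so their differences are between dim signals and no fold is given. Ptger1, whose receptor EP1 signals through calcium, had 4.76, 5.19 and 4.97 on the keratinocyte-labelled arrays and 4.49, 3.69 and 3.62 on the MEF-labelled ones. Replicate 1 labelled MEFs lay near the lower edge of the other group, and the log2 difference was 1.04 ± 0.23 (SE, adjusted p = 0.00354, limma). Ptger4, whose receptor EP4 raises cyclic AMP, had 4.47, 4.99 and 4.86 on the keratinocyte-labelled arrays and 3.49, 3.93 and 3.74 on the MEF-labelled ones. Its log2 difference was 1.05 ± 0.16 (SE, adjusted p = 0.000454, limma). The groups of both genes did not overlap (exact two-sided permutation test, p = 0.1 each). When dim probe sets were left out by any of 3 filters, Ptgis, Ptger1 and Ptger4 were among those removed and 0 of the set remained higher on the keratinocyte-labelled arrays.

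The steps before and beside the cyclooxygenase were covered in part. Of 12 listed phospholipases A2, 3 were measured, 1 was higher on the keratinocyte-labelled arrays, 1 on the MEF-labelled ones and 1, Pla2g12a, did not pass. In these directions 32.9% and 41.7% of all genes passed, so the counts do not stand apart from genes in general. Pla2g4a, the cytosolic enzyme that releases arachidonic acid, had 8.23, 8.11 and 8.19 on the keratinocyte-labelled arrays and 7.22, 7.40 and 7.30 on the MEF-labelled ones, 1.83-fold higher on the keratinocyte-labelled arrays (adjusted p = 4.96e-05, limma). Pla2g6, a calcium-independent phospholipase, went the other way with a log2 difference of -0.42 ± 0.08 (SE, adjusted p = 0.00197, limma). Of 7 other terminal synthases, 2 were measured. Prxl2b, which makes prostaglandin F2α, differed by 1.52 ± 0.13 on the log2 scale (SE, adjusted p = 1.60e-05, limma) but was at or under background on all arrays. Cbr1, a carbonyl reductase, did not pass, with a difference of 0.13 (95% interval -0.11 to 0.37, adjusted p = 0.286, limma). Of 6 other prostanoid receptors only the thromboxane receptor gene Tbxa2r was measured, with 5.37, 5.45 and 5.33 on the keratinocyte-labelled arrays and 3.53, 3.92 and 4.46 on the MEF-labelled ones, again without a signal above background (adjusted p = 0.000349, limma).

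In the list of prostaglandin transport and further breakdown, 4 of 6 genes were measured and all 4 were higher on the MEF-labelled arrays, a direction in which 41.7% of all genes passed, with a median log2 difference of -0.80 against -0.12 over all genes. Ptgr2, which reduces the 15-keto metabolite of prostaglandin E2, had 5.75, 5.38 and 5.75 on the keratinocyte-labelled arrays and 6.58, 6.64 and 6.37 on the MEF-labelled ones (adjusted p = 0.000328, limma). It exceeded background on 2 arrays of each label. Cbr2, a carbonyl reductase, was above it on all 6 arrays and differed by -0.76 ± 0.10 (SE, adjusted p = 0.000217, limma). Cbr3, a related reductase, and Abcc4, an exporter of prostaglandins, were not above background on any array.

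**Figure D3:**
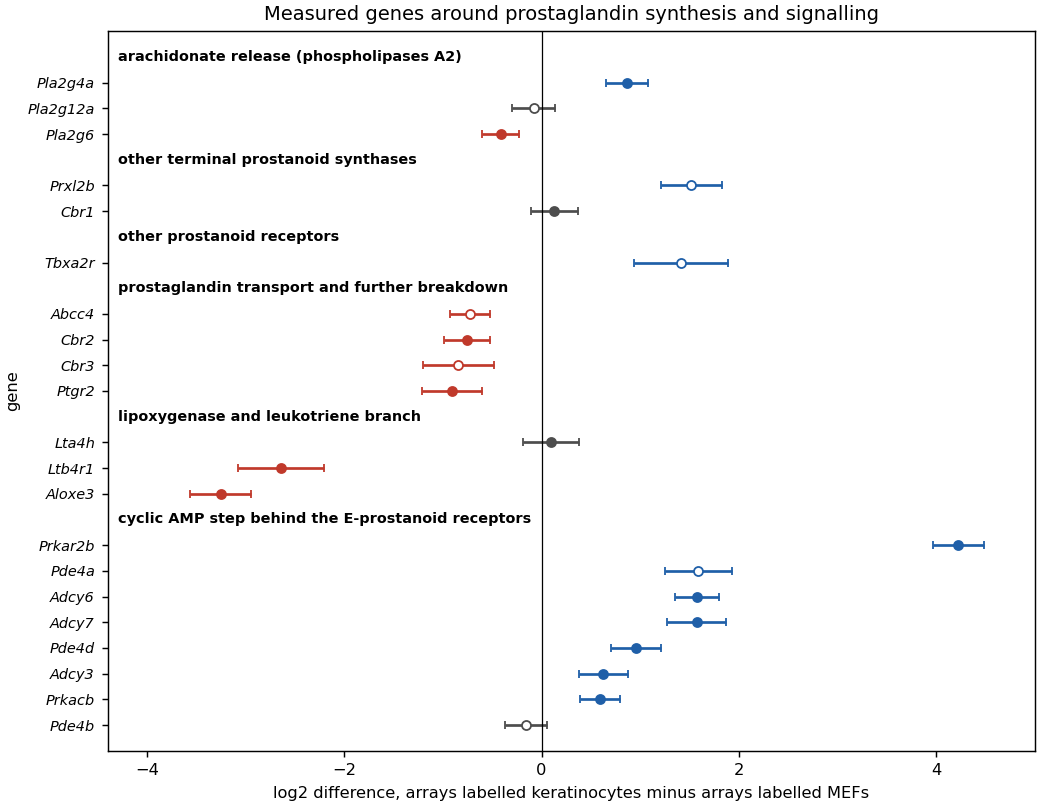
Log2 difference (horizontal axis, keratinocyte-labelled minus MEF-labelled) with 95% intervals for the measured genes of 6 lists around the pathway. Blue passed as higher on the keratinocyte-labelled arrays, red as higher on the MEF-labelled ones, grey did not pass, and open points mark genes above background on no array. The 4 transport and breakdown genes lie on the left, and 7 of the 8 genes of the cyclic AMP step on the right.

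Arachidonic acid is also the substrate of lipoxygenases. Of 14 genes of the lipoxygenase and leukotriene branch, 3 were measured, of which 2 were higher on the MEF-labelled arrays (41.7% of all genes). Aloxe3, an epidermal enzyme of the skin's lipid barrier, had 2.66, 2.95 and 2.75 on the keratinocyte-labelled arrays and 5.78, 6.16 and 6.17 on the MEF-labelled ones (adjusted p = 1.50e-07, limma). It was above background on 1 array, labelled MEF, so no fold is given. The leukotriene B4 receptor gene Ltb4r1 was also lower on the keratinocyte-labelled arrays (adjusted p = 4.55e-06, limma) and likewise above background on 1 array labelled MEF. Lta4h, which makes leukotriene B4, did not pass, with a difference of 0.10 (95% interval -0.19 to 0.38, adjusted p = 0.506, limma).

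EP2 and EP4 act through adenylyl cyclase and protein kinase A, while phosphodiesterases remove cyclic AMP, so the genes listed for this step do not all act the same way. Of 14 listed genes of this step 8 were measured, 7 were higher on the keratinocyte-labelled arrays, as 32.9% of all genes were, and 1, Pde4b, did not pass. Of the 8 genes, 7 were above background on no MEF-labelled array, Prkacb being the exception, so the median fitted log2 difference of 1.27 (-0.12 over all genes) rests mostly on signals under background there. Prkar2b, a regulatory subunit of protein kinase A, had 6.94, 6.61 and 6.67 on the keratinocyte-labelled arrays and 2.47, 2.61 and 2.45 on the MEF-labelled ones, at least 1.28-fold higher on the keratinocyte-labelled arrays (adjusted p = 1.41e-08, limma). Such a bound sets the mean of the brighter group over the background level of the other. The adenylyl cyclase gene Adcy6 was at least 1.90-fold higher there, with a log2 difference of 1.58 ± 0.10 (SE, adjusted p = 1.49e-06, limma). Pde4a, a cyclic AMP phosphodiesterase, differed by 1.59 ± 0.15 (SE, adjusted p = 2.11e-05, limma) but was above background on no array. These genes serve many receptors besides EP2 and EP4.

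Markers of immune cells, which can also make prostaglandins, were sparse. Of 6 macrophage markers 2 were measured. Cd68 had 4.39, 5.00 and 4.53 on the keratinocyte-labelled arrays and 8.58, 8.68 and 8.43 on the MEF-labelled ones, the same direction as Ptges. Lyz2 went the other way, with 4.76, 5.24 and 5.71 on the keratinocyte-labelled arrays and 0.47, 2.07 and 1.93 on the MEF-labelled ones. Their summed log2 signal was 5.58 to 6.24 on the keratinocyte-labelled arrays and 8.45 to 8.69 on the MEF-labelled ones, where nearly all of it was Cd68. The part of these 2 genes in the differences of the prostaglandin genes was not tested. None of the 5 mast cell and 5 melanocyte markers was analysed here.

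**Figure D4:**
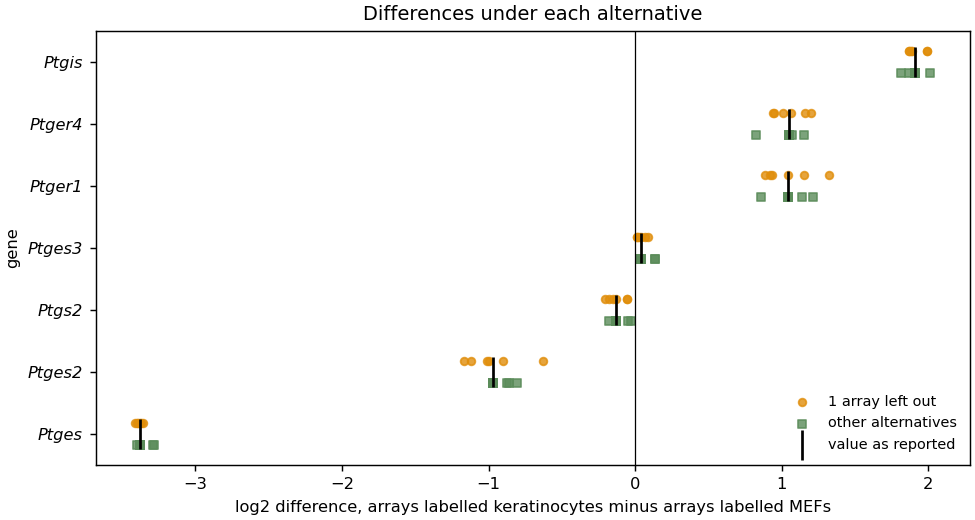
Log2 difference (horizontal axis, keratinocyte-labelled minus MEF-labelled) of each measured gene as reported (black bar), with 1 array left out (orange) and under the other alternatives (green). Ptges stayed between -3.41 and -3.28, Ptges2 ranged from -1.17 to -0.63, and no gene changed sign.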

How the data were processed

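The authors deposited log2 signals of 15648 probe sets on 6 Affymetrix MoGene arrays. The methods state RMA normalization with oligo (1.46.0 in the submitters' processing notes). The range of the values fits RMA, but no source used here states it for this table or says how its probe sets were selected. RMA brings arrays to 1 distribution and pulls dim signals together, which can shrink differences of dim genes. In this table the array medians still differed, at 6.16 to 6.22 on the keratinocyte-labelled arrays and 6.25 to 6.31 on the MEF-labelled ones. The platform's probe table gave 11288 probe sets 1 symbol and 645 several, and 3715 are unnamed here. By gene identifier, 11274 of the 11288 were matched to RefSeq genes of GRCm38.p6. For genes with several probe sets the brightest was taken (10261 genes).

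Arrays labelled keratinocytes were compared with arrays labelled MEFs with limma 3.58.1 (lmFit, eBayes; R 4.3.3) on the 11288 probe sets, with Benjamini-Hochberg adjustment and a threshold of 0.05. The fit was tested on simulated data. A gene at or under background on every array of a group has only a bound there. The members and lists were chosen with earlier results of these data known. Named were all members, Cdh1 and Vim, and up to 3 genes past the threshold with the largest differences in each pathway list, those past it against the direction of most of their list, label check genes and the first gene of a marker list. Kdr, Pla2g12a, Cbr1, Abcc4, Lta4h, Pde4b, Prkacb, Acta2 and Lyz2 were named after their values were seen. The labels do not say whether replicates came from separate animals, so p-values measure the spread between these arrays, and their number limits the precision. The alternatives were a replicate block, leaving out each array, 2 other scalings, an intensity trend, array weights and 3 filters on dim probe sets. Further alternatives were Student's t-test, averaging a gene's probe sets, fitting all probe sets and a minimum log2 difference of 1. The methods name limma for differential expression on arrays, and Student's t-test under statistical analysis. Python 3.11.15 with matplotlib 3.10.9 drew the figures.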

Additional observations from a re-analysis of the deposited data

How the results depend on the processing

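Ptges, Ptgis, Ptger1, Ptger4, Cdh1 and Vim kept their direction and their side of the threshold under each alternative in which they were tested, and Ptgs2 and Ptges3 passed in none. Ptges2 lost its call with Student's t-test (adjusted p = 0.07) and, at -0.97, with a minimum log2 difference of 1. In each case 1 gene of the set, Ptges, was then higher on the MEF-labelled arrays. With the dimmest 25%, with those below the median or with those not above background on 3 arrays left out, 4 genes of the set were tested and 0 were higher on the keratinocyte-labelled arrays, because Ptgis, Ptger1 and Ptger4 were removed. Of all genes, 3371 passed as higher on the keratinocyte-labelled arrays and 4278 on the MEF-labelled ones. The counts were 1680 and 2489 without probe sets below the median, where fewer genes were tested, and 1442 and 1476 with the minimum difference. Leaving out 1 array gave 3080 to 3300 and 3750 to 4195 genes, and the set kept counts of 3 and 2. With median centring the counts of all genes were 3801 and 3733, so the direction with more genes changed. With quantile normalization they were 3542 and 3983, and that direction did not change. The replicate block left 3 and 2 genes of the set and 3117 and 3942 genes in all. Deviations of arrays with the same number correlated at -0.23, -0.21 and -0.03. With so few arrays these values cannot show whether arrays of the same number shared a preparation or batch. Background rests on 10 probe sets and is a rough level, and signals under it have no reliable fold.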
